A study of Rattus norvegicus with 172 samples.

Results

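The comparison is between 2 groups of arrays taken from the cord segment just rostral to a spinal gap, 30 days after the operation: 3 arrays from rats that received a chitosan tube seeded with an NT-3-chitosan carrier (NT-3 tube) and 3 arrays from rats that received an empty chitosan tube (tube alone). The arrays were assigned by their labels, the comparison was picked with earlier results of these data known, among them the like RT1-CE10 levels of both groups, and the arrays make up 6 of the 172 arrays of the series. All animals were adult female Wistar rats, 2 months old, whose cord was cut at T7-8 with removal of a 5 mm piece, so the gap, the aspiration of remaining fibres and the chitosan wall are common to both groups. Each array was hybridised with RNA pooled from 4 animals, from a 5 mm block that kept its dura and meninges. Rats with the same removal and no implant (lesion control, 3 arrays) and uninjured cord (normal, 3 arrays) are given beside the comparison for reference. The comparison asks what the NT-3 carrier adds to the tube in spared cord next to the gap.

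Neurotrophin-3 is a secreted growth factor whose main receptor is the kinase TrkC, encoded by Ntrk3. In the spinal cord it is known for supporting proprioceptive sensory neurons and for promoting growth of corticospinal and sensory axons. When the cord is opened, meningeal and perivascular fibroblasts enter the wound and lay down fibrillar collagen, proteoglycans and fibronectin, the fibrotic part of the scar, while neurons and myelin next to the gap are lost.

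The tissue carried the markers of spinal cord. The neuronal gene Snap25 read 13.17 to 13.46 on the log2 scale over the 6 arrays, myelin basic protein Mbp 14.63 to 14.68 and the astrocyte filament gene Gfap 14.30 to 14.40. RT1-CE10, an MHC class I gene that divides other groups of this series, read 11.20, 11.28 and 11.20 in NT-3 tube and 10.93, 10.85 and 11.11 in tube alone, a difference of 0.26 ± 0.25 (SE; limma, adjusted p = 0.465), with 6.55 as the mean in normal cord. Its NT-3 values all lay above its tube alone values, by about the model's standard error. The comparison was picked with these levels known, so this p does not test whether the groups were alike. The arrays themselves were not alike. The 18 probe sets for hybridization controls, RNAs added in equal amount to every array, averaged 11.06 to 11.12 in NT-3 tube and 11.29, 11.82 and 11.88 in tube alone, arrays 1 to 3, against 10.89 to 11.70 (median 11.15) on the other 56 rostral arrays. Tube alone arrays 2 and 3 thus stood above every other rostral array, and the 2 groups did not overlap in this control. Signs of RNA integrity differed too: the 3′ minus 5′ difference of the Gapdh control probe sets was -0.09 to -0.02 in NT-3 tube and -0.20 to -0.11 in tube alone, without overlap, and that of actin was 0.89 to 1.20 and 0.81 to 0.91. Tube alone array 3 also carried skeletal muscle RNA. Genes correlated at r = 0.991 to 0.993 between the NT-3 arrays and at 0.975 to 0.985 between the tube alone arrays. Results are therefore given also with the control level as a covariate and without tube alone arrays 2 and 3. The part of the control level in the other differences, and that of the 3′ to 5′ differences, was not tested.

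**Figure D1:**
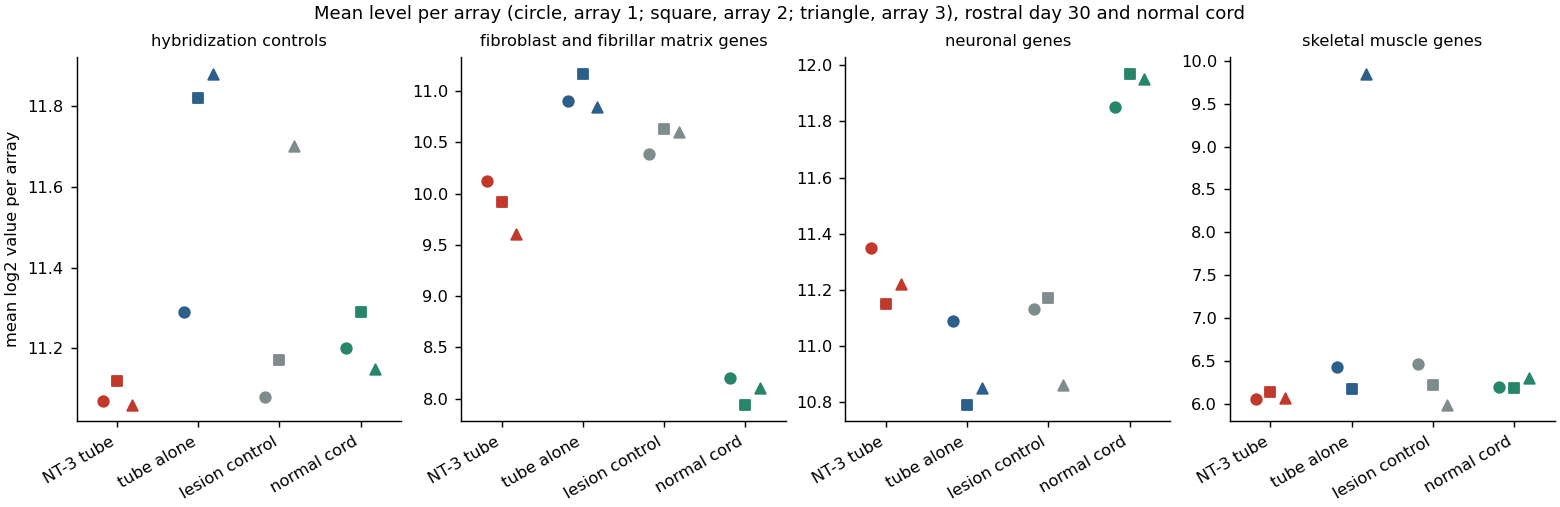
Mean log2 value per array for the hybridization controls and for the genes of 3 lists, by group; each symbol is 1 array (circle, array 1; square, array 2; triangle, array 3). Tube alone arrays 2 and 3 were at 11.82 and 11.88 in the controls, the matrix genes averaged 9.61 to 10.12 in NT-3 tube and 10.84 to 11.17 in tube alone, and muscle genes were high on tube alone array 3 alone, at 9.85.

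Of 11553 genes tested, 2264 (19.6%) passed an adjusted p of 0.05 in limma: 1589 were higher in NT-3 tube (13.8%) and 675 lower (5.84%). The falls were the larger changes. Among called genes 129 were at least 2-fold lower and 13 at least 2-fold higher, and over all genes tested the median difference was 0.06. Replicates of 1 group did not overlap those of the other for 4341 genes (37.6%). With the hybridization controls as a covariate 124 genes passed (1.07%), 50 higher (0.433%) and 74 lower (0.641%). Without tube alone arrays 2 and 3, 26 passed (0.225%), 7 higher (0.0606%) and 19 lower (0.164%). Without array 3 alone 801 passed (6.93%), 456 higher (3.95%) and 345 lower (2.99%). Of the 2264 genes, 112 passed with the same sign also under the covariate, 41 higher and 71 lower. The counts of called genes were thus far lower under both alternatives, which the sizes given with each result accompany. Genes described here beyond the naming rule stated under processing were chosen after their values were seen.

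**Figure D2:**
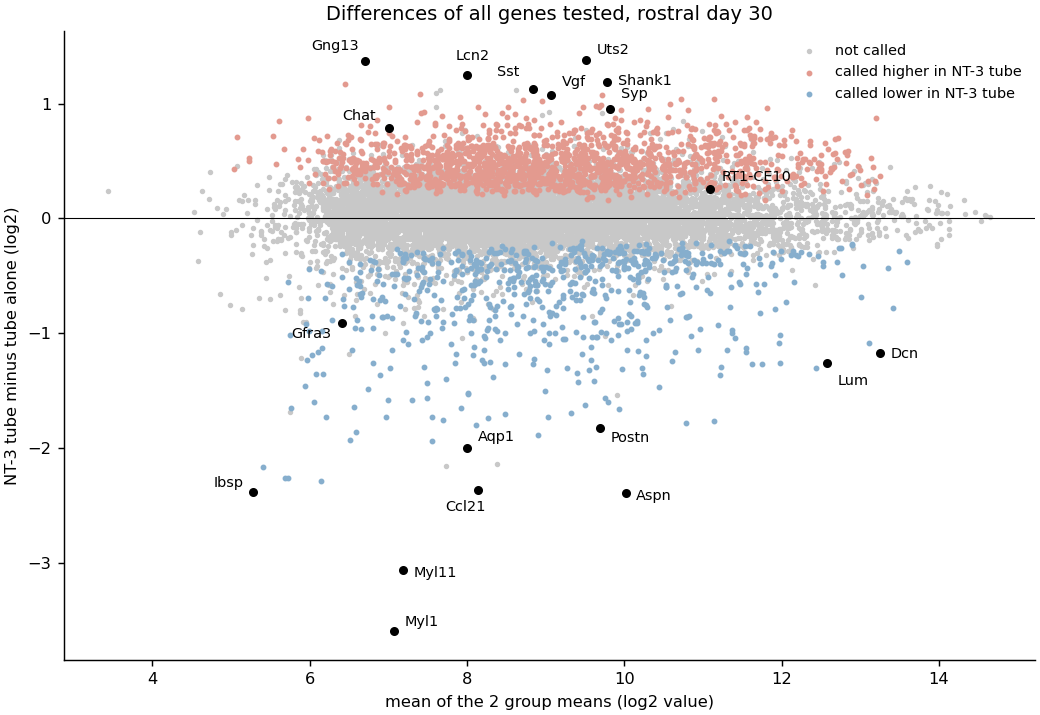
Difference NT-3 tube minus tube alone (log2, vertical axis) against the mean of the 2 group means (log2, horizontal axis), 1 point per gene tested, coloured where called. Falls reach further than rises: Aspn at -2.39 and Ccl21 at -2.36 against Uts2 at 1.38, with the muscle genes Myl1 and Myl11 lowest at -3.59 and -3.06.

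Fibroblast and fibrillar matrix genes were lower in NT-3 tube. Of 24 such genes 19 fell and none rose, against 5.84% called lower over all genes, with a median difference of -1.16. In 23 of the 24 the NT-3 and tube alone arrays did not overlap, against 37.6% of all genes tested. Periostin (Postn), a matrix protein of wound fibroblasts, read 9.0, 8.57 and 8.77 in NT-3 tube and 10.12, 10.82 and 10.86 in tube alone. All NT-3 arrays lay below all tube alone arrays, and the difference was -1.82 ± 0.48, or 3.53-fold (adjusted p = 0.00794). The collagen-binding proteoglycan decorin (Dcn) read 12.79, 12.65 and 12.55 against 13.87, 13.94 and 13.69, a difference of -1.17 ± 0.19 (adjusted p = 0.000187). Its NT-3 arrays lay close together, well below the lowest tube alone array. Fap, the fibroblast activation protease, read 6.82, 7.17 and 6.48 against 8.22, 9.08 and 8.43, a difference of -1.75 ± 0.31 (adjusted p = 0.000364). The fibrillar collagen genes Col1a1, Col1a2 and Col3a1 differed by -1.29, -1.30 and -1.08 (adjusted p = 0.0156, 0.00401 and 0.00991). Col8a1, a network collagen, differed by -1.73 ± 0.39 (adjusted p = 0.00264), the cross-linking enzyme Lox by -1.56 ± 0.43 (adjusted p = 0.0112), and the adhesive protein fibronectin (Fn1) by -1.08 ± 0.30 (adjusted p = 0.0106). Lumican (Lum), a partner proteoglycan of decorin, read 12.19, 11.90 and 11.76 against 13.25, 13.21 and 13.17, with no overlap. Not called were fibromodulin (Fmod, 0.04), Pdgfrb (-0.39), Col6a2 (-0.53), Thbs2 (-0.53) and tenascin C (Tnc, -0.73). In bulk RNA, fewer cells of a type and less RNA per cell cannot be told apart.

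The size of the matrix difference changed little with the arrays used, while its calls became few. The list median was -1.01 with the hybridization controls as covariate, where 4 members passed (Dcn, Col8a1, Fap and Sparc, all lower), and -1.15 without tube alone arrays 2 and 3, where 2 passed (Dcn and Sparc). Leaving out only array 3, the one with muscle RNA, gave 19 lower and a median of -1.21. Leaving out NT-3 array 3 or tube alone array 2 gave 12 lower each, with medians of -0.99 and -1.07. Tube alone array 1, whose control level was nearest to the NT-3 arrays, had a list mean of 10.90, between the 11.17 and 10.84 of arrays 2 and 3. The groups did not overlap in the control level, so its part cannot be told from that of the group and was not tested. The lesion control arrays, at 10.39 to 10.63, lay between the NT-3 and the tube alone arrays, and normal cord was at 7.94 to 8.20. Matrix genes in NT-3 tube were thus still well above normal cord, and for Postn the means were 8.78 in NT-3 tube, 10.60 in tube alone, 9.70 in lesion control and 5.80 in normal cord.

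Upstream sequences are shown for Postn and dermatopontin (Dpt), a small decorin-binding matrix protein, as genes that fell together, and for the neuropeptide precursor Vgf, described further on, as one that rose. Each is the 250 bases before the annotated start in RefSeq (GRCr8), read 5′ to 3′ on the gene's strand, with capitals for TATAAA and for TGACGTCA, the cyclic AMP response element, searched on both strands.
Postn, chr2:140677811-140678060, plus strand: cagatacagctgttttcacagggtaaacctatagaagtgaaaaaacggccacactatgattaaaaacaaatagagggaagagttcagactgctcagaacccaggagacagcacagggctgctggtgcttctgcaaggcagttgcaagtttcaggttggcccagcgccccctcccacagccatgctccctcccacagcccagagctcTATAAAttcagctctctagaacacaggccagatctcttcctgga
Dpt, chr13:79656091-79656340, plus strand: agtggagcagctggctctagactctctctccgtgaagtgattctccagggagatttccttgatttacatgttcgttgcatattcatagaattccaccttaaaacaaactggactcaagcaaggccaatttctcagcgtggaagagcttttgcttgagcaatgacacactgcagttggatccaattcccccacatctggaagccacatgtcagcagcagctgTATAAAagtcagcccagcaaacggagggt
Vgf, chr12:25277021-25277270, minus strand: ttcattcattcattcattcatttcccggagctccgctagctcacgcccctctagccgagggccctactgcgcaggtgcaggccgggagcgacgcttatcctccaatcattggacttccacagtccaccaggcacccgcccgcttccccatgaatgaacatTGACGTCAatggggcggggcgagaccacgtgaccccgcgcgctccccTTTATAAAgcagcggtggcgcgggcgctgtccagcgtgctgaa
TATAAA begins 44 bases before the start in Postn, 29 in Dpt and 41 in Vgf, where a match on the other strand overlaps it, and TGACGTCA begins 90 bases before the start of Vgf. Of 9612 tested genes with a promoter in the table, 6.73% hold TATAAA and 2.95% TGACGTCA. Among 529 genes called lower these shares were 10.6% and 1.32%, and among 1328 called higher 5.80% and 2.86%. Of 15 matrix list genes found in the table, 4 hold TATAAA and none TGACGTCA. A match describes the letters and not a bound site. Dpt itself read 10.34, 9.79 and 9.53 against 11.90, 11.78 and 11.33, with no overlap and a difference of -1.78 ± 0.30, 3.44-fold (adjusted p = 0.000253).

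Meningeal genes fell in part. Of 13 genes of meninges and arachnoid 5 fell and none rose, against 5.84% called lower over all genes, with a median of -0.57. Foxc1, the transcription factor that meningeal development requires, read 6.07, 6.34 and 6.11 in NT-3 tube and 7.20, 7.71 and 7.39 in tube alone, a difference of -1.26 ± 0.21 (adjusted p = 0.000187). The groups were well apart, and normal cord was at 5.31. The matricellular gene Ccn3 read 9.84, 9.84 and 9.42 against 11.29, 11.34 and 10.88, a difference of -1.47 ± 0.26 (adjusted p = 0.000326). The transporter Slc47a1 differed by -1.29 ± 0.44 (adjusted p = 0.0347). Other defining genes of these membranes were level: prostaglandin D synthase Ptgds differed by -0.02, the transporter Slc13a4 by 0.04 and the retinoic acid enzyme Aldh1a2 by 0.02, none called. The summed amount of membrane in the blocks was not measured. Mean levels of the list were 9.83 to 10.28 in NT-3 tube, 10.49 to 10.79 in tube alone, 10.42 to 10.56 in lesion control and 7.95 to 8.48 in normal cord. With the covariate the median was -0.28 and 2 members passed, Ccn3 and Foxc1. Without tube alone arrays 2 and 3 it was -0.30 and Ccn3 passed. Leaving out NT-3 array 3 or tube alone array 2 gave 2 lower, and each of NT-3 arrays 1 and 2 and tube alone array 3 gave 3.

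Ccl21, a chemokine that guides dendritic cells and T cells through the receptor Ccr7, read 7.21, 6.47 and 7.20 in NT-3 tube and 10.04, 9.44 and 8.49 in tube alone, a difference of -2.36 ± 0.40, 5.15-fold (adjusted p = 0.000253). Lesion control arrays read 9.48, 9.35 and 8.74, near tube alone, and normal cord 5.26 on average. With the covariate the difference was -2.66 (adjusted p = 0.00633) and without tube alone arrays 2 and 3 it was -3.08 (adjusted p = 0.00733). Mmrn1, a secreted protein of platelets and endothelium, read 4.54, 4.38 and 4.73 against 7.02, 7.15 and 6.25, a difference of -2.26 ± 0.47 (adjusted p = 0.00134). Its NT-3 arrays and tube alone array 3 lay below 6.55, the mean a gene had to reach in some group to be tested. The leucine-rich matrix protein asporin (Aspn) read 8.97, 9.23 and 8.25 against 11.04, 11.57 and 11.01, -2.39 ± 0.70 (adjusted p = 0.0151). The water channel Aqp1 read 7.14, 6.96 and 6.91 against 8.56, 9.40 and 9.04, -2.0 ± 0.41 (adjusted p = 0.00118). Each of these 3 genes separated the groups without overlap. Hmcn1, a large basement membrane protein, differed by -1.94 ± 0.34 (adjusted p = 0.000386).

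Some growth factor and protease genes that act on matrix fell, while more members of each list were not called than fell. Among 21 genes of IGF, TGF-beta and BMP signalling 8 fell and 1 rose, against 5.84% and 13.8% over all genes. The list median was -0.29, and 5 of the falls passed with the covariate. The falls numbered 2 without tube alone arrays 2 and 3 (median -0.25). Without NT-3 array 3 there were 3, and without tube alone array 2 there were 5. Gdf10, a secreted TGF-beta family ligand, read 7.60, 7.44 and 7.17 against 9.31, 9.45 and 8.67, -1.74 ± 0.32 (adjusted p = 0.000475). Among the binding proteins that hold insulin-like growth factors, Igfbp3 read 9.65, 9.40 and 8.89 against 10.60, 10.87 and 10.39, -1.31 ± 0.23 (adjusted p = 0.000401). Igfbp5 differed by -1.27 ± 0.33 (adjusted p = 0.00739) and Igfbp2 by -0.14, not called. The ligand Tgfb3 differed by -0.98 ± 0.19 (adjusted p = 0.000649), whereas Tgfb1 (0.20) and Tgfb2 (-0.32) were not called, and the member that rose was the activin subunit Inhbb (0.51). Of 18 matrix metalloproteinase and plasminogen genes 8 fell and 1, the aggrecan-cleaving Adamts4 (0.39), rose, against 5.84% and 13.8% over all genes. The list median was -0.53, and -0.40 with the covariate, where 1 fell, and -0.26 without tube alone arrays 2 and 3, where none did. Without tube alone array 2 there were 5 falls. The gelatinase Mmp2 read 9.07, 9.07 and 8.74 against 9.94, 10.13 and 9.90, -1.03 ± 0.24 (adjusted p = 0.00323). Stromelysin Mmp3 read 5.29, 5.47 and 5.28 against 5.97, 7.18 and 8.07, so the tube alone arrays spread over more than 2 log2 units, -1.73 ± 0.35 (adjusted p = 0.00104). Without tube alone arrays 2 and 3 its difference was -0.62. The inhibitors Timp1 (0.14) and Timp2 (0.06) were not called and Timp3 fell (-0.48).

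A set of 18 genes passed with the same sign in the fit on all arrays, with the covariate, with each array left out and without tube alone arrays 2 and 3 together. This set was picked by its calls, so its size supports nothing further. The 16 lower ones were Ccl21, Dpt, Gdf10, Tc2n, Ccn3, Clic2, Medag, C1qtnf2, Dcn, Col6a6, Mxra8, Tgfb3, Il13ra2, Sparc, Slu7 and Bbx, and the 2 higher ones Aldh5a1 and Ipo11. Il13ra2, the decoy receptor for interleukin 13, read 6.40, 6.37 and 6.22 against 7.55, 7.47 and 6.83, -0.95 ± 0.17 (adjusted p = 0.000326). Sparc, a collagen chaperone of the matrix, read 13.06, 12.47 and 12.47 against 13.60, 13.36 and 13.09. Its difference was -0.68 ± 0.14 (adjusted p = 0.00109), small beside the collagens, and NT-3 array 1 reached nearly to tube alone array 3. Aldh5a1, the enzyme that breaks down the transmitter GABA beyond succinic semialdehyde, read 9.42, 9.50 and 9.65 against 8.63, 8.86 and 8.84, with 10.21 in normal cord. Its difference was 0.75 ± 0.12 (adjusted p = 0.000122), 0.71 with the covariate and 0.89 without tube alone arrays 2 and 3.

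**Figure D3:**
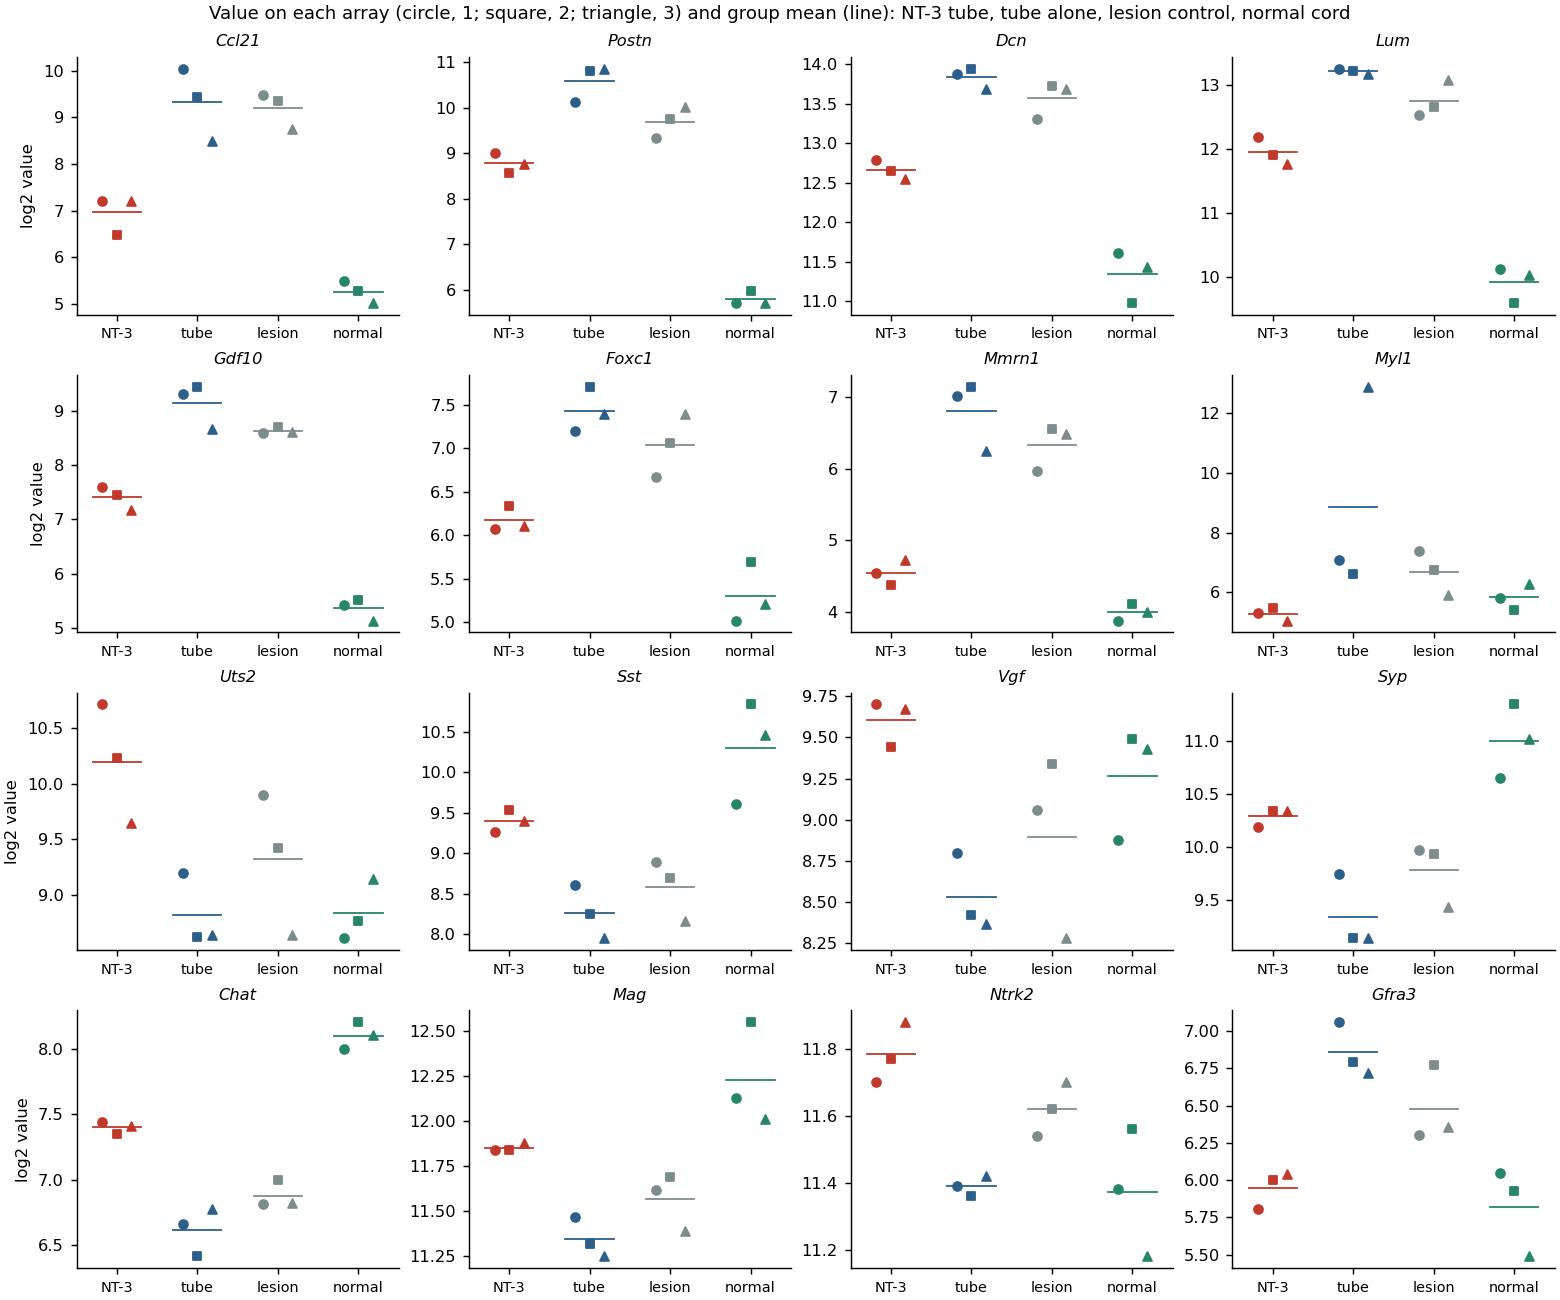
Log2 value of 16 genes on each array (circle, array 1; square, array 2; triangle, array 3), with group means as lines, for NT-3 tube, tube alone, lesion control and normal cord. Ccl21, Postn, Dcn, Lum, Gdf10, Foxc1 and Mmrn1 were lower in all NT-3 arrays than in all tube alone arrays, Myl1 stood at 12.90 on tube alone array 3 only, and the neuronal genes in the third row and Chat were higher in NT-3 tube, with tube alone array 1 nearest to it for Syp, Sst and Vgf.

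Neuronal and synaptic genes were higher in NT-3 tube, by smaller amounts. Of 18 neuronal genes 8 rose and none fell (median 0.33), and of 18 genes of synaptic transmission 9 rose and none fell (median 0.41). Over all genes tested 13.8% were called higher, with a median difference of 0.06. Synaptophysin (Syp), a synaptic vesicle protein, read 10.19, 10.34 and 10.34 in NT-3 tube and 9.75, 9.14 and 9.14 in tube alone, a difference of 0.95 ± 0.18, 1.93-fold (adjusted p = 0.000753). Normal cord was at 11.00. The vesicular GABA and glycine transporter Slc32a1 read 8.80, 9.03 and 8.86 against 8.44, 7.56 and 7.93, 0.92 ± 0.22 (adjusted p = 0.00486). Syn1, another vesicle protein, differed by 0.67 ± 0.17 (adjusted p = 0.00592), the GABA-making enzyme Gad1 by 0.54, the chloride exporter Slc12a5 by 0.64 and the NMDA receptor subunit Grin1 by 0.46, all called. Not called were the AMPA receptor subunit Gria2 (-0.43), the glycine receptor subunit Glra1 (0.03) and the glutamate transporter Slc17a6 (0.20). Among general neuronal genes, the ubiquitin hydrolase Uchl1 read 11.94, 11.99 and 11.99 against 11.56, 11.00 and 11.00, 0.79 ± 0.19 (adjusted p = 0.00401). Neuronal enolase (Eno2) read 11.98, 12.05 and 11.96 against 11.64, 11.21 and 11.05, 0.70 ± 0.16 (adjusted p = 0.0031). The surface protein Thy1 differed by 0.67 ± 0.15 (adjusted p = 0.0024), the neurofilament genes Nefh by 0.60 and Nefm by 0.37, and Snap25 (0.11), Rbfox3 (0.15) and Nefl (0.29) were not called.

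For Syp, Uchl1, Eno2 and Thy1 tube alone array 1, with controls at 11.29, lay closer to the NT-3 arrays than arrays 2 and 3, with controls at 11.82 and 11.88, whereas for Snap25, Nefl and Rbfox3 array 3 lay closer to the NT-3 mean than array 1. With the covariate no member of either list passed, and the medians were 0.26 and 0.24. Without tube alone arrays 2 and 3 none passed, with medians of 0.23 and 0.28. With tube alone array 3 alone left out 4 neuronal and 6 synaptic genes rose, and with array 2 alone left out 4 and 2, while the medians stayed between 0.30 and 0.42. Without NT-3 array 1 or 3 the neuronal count was 5. Mean levels of the neuronal list were 11.15 to 11.35 in NT-3 tube, 10.79 to 11.09 in tube alone, 10.86 to 11.17 in lesion control and 11.85 to 11.97 in normal cord. The third lesion control array, with controls at 11.70, had the lowest list mean of its group, at 10.86. For Snap25 (13.43) and Nefl (13.08) it was the highest of its group, and for Rbfox3 (6.98) the lowest. The part of the control level in these values was not tested.

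**Figure D4:**
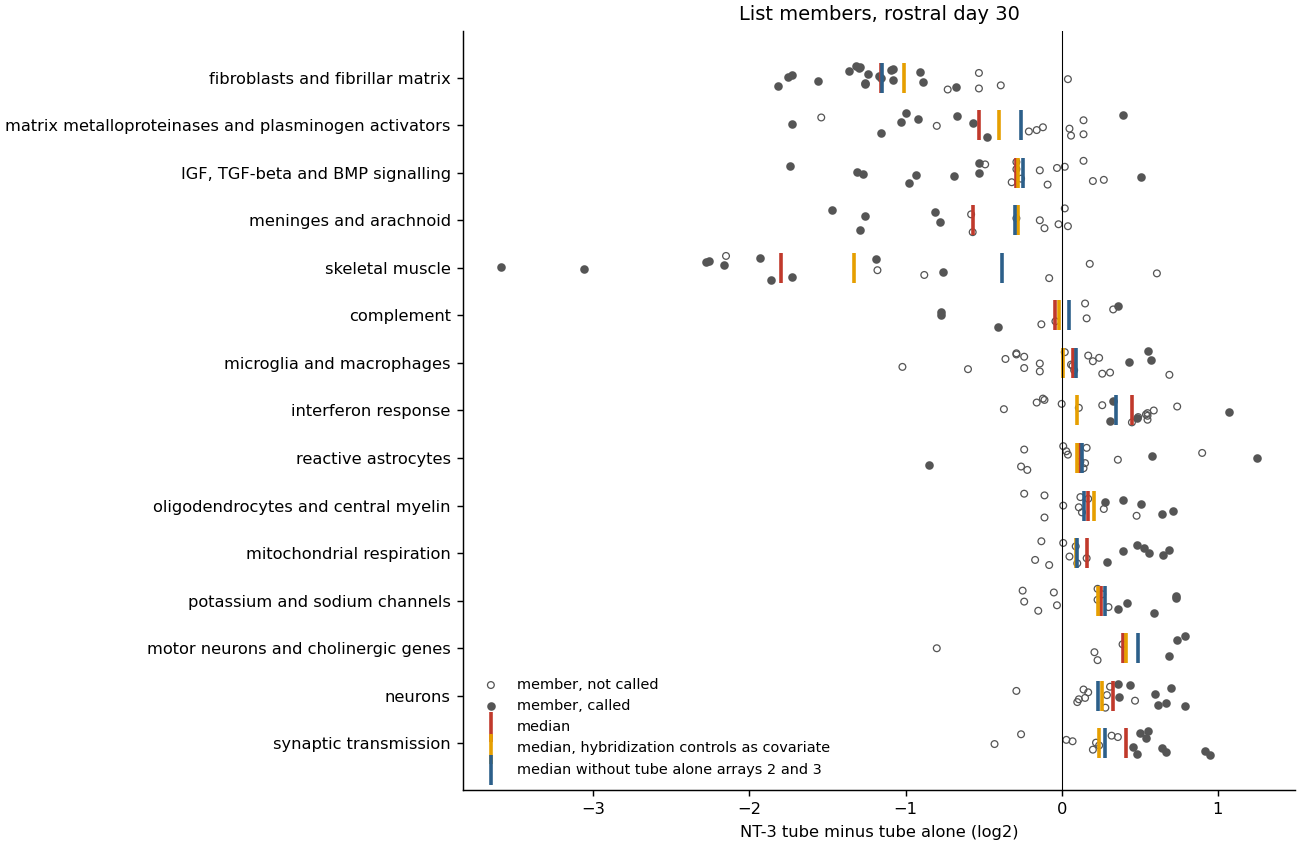
Difference NT-3 tube minus tube alone (log2) of each tested member of 15 lists, 1 circle per gene, filled where called, with the list medians on all arrays, with the hybridization controls as covariate and without tube alone arrays 2 and 3. The 3 medians of the matrix list lay at -1.16, -1.01 and -1.15, and those of the muscle list at -1.80, -1.33 and -0.38.

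Cholinergic motor neuron genes rose with the neuronal ones. Of 7 tested, 3 rose and none fell, against 13.8% called higher over all genes. The list median was 0.39, 0.41 with the covariate and 0.49 without tube alone arrays 2 and 3. Choline acetyltransferase (Chat) read 7.44, 7.35 and 7.41 in NT-3 tube and 6.66, 6.41 and 6.77 in tube alone, 0.79 ± 0.19 (adjusted p = 0.00482). All NT-3 arrays lay above all tube alone and lesion control arrays, and below the 8.11 of normal cord. The vesicular acetylcholine transporter Slc18a3 read 7.96, 8.32 and 8.05 against 7.58, 7.32 and 7.36, 0.69 ± 0.17 (adjusted p = 0.00487). Chodl, a lectin of fast motor neurons, read 10.84, 10.66 and 10.83 against 10.16, 9.45 and 10.50, 0.74 ± 0.19 (adjusted p = 0.00694). With the covariate Chodl passed (0.88, adjusted p = 0.045), and Chat (adjusted p = 0.212) and Slc18a3 (adjusted p = 0.317) did not. None of the 7 passed without tube alone arrays 2 and 3. Not called were the choline transporter Slc5a7 (0.23), Chrna4 (0.39), Prph (0.21) and Mmp9 (-0.80).

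The peptide genes Uts2, Sst and Vgf were among the 12 largest rises, while Npy (0.15, adjusted p = 0.816), Adcyap1 (0.05, adjusted p = 0.788) and Calca (0.60, adjusted p = 0.215), other peptide genes, were not called. Urotensin 2 (Uts2), a peptide of spinal motor neurons, read 10.71, 10.23 and 9.65 in NT-3 tube and 9.20, 8.62 and 8.64 in tube alone, 1.38 ± 0.28, 2.6-fold (adjusted p = 0.00109). Lesion control averaged 9.32 and normal cord 8.84, so the NT-3 arrays lay above normal cord. Somatostatin (Sst), a peptide of dorsal horn interneurons, read 9.26, 9.53 and 9.40 against 8.61, 8.25 and 7.95, 1.13 ± 0.28 (adjusted p = 0.00594). Vgf, whose gene responds to neurotrophins, read 9.70, 9.44 and 9.67 against 8.80, 8.42 and 8.37, 1.07 ± 0.25 (adjusted p = 0.00356). Galanin (Gal), a peptide induced in injured neurons, rose by 0.71 ± 0.24 (adjusted p = 0.0321). The postsynaptic scaffold Shank1 read 10.32, 10.29 and 10.52 against 9.57, 8.88 and 9.10, 1.19 ± 0.29 (adjusted p = 0.00422), on 1 of its probe sets. Its other, dimmer probe sets were at -0.08 and -0.12. The G protein subunit Gng13 rose by 1.37, the transcription factor Irx1 by 1.17, Sh2d5 by 1.08, the mitochondrial protein Chchd10 by 1.04, the myosin phosphatase inhibitor Ppp1r14a by 1.04 and Ctxn2 by 1.03. None of the 12 largest rises, which also hold Lcn2 and Isg15, passed with the covariate, where Uts2 was at 0.57, Sst at 0.46 and Vgf at 0.36. Without tube alone arrays 2 and 3 these 3 were at 1.00, 0.79 and 0.80.

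Myelin, channel and metabolic genes gave partial rises, to be read against the 13.8% called higher over all genes tested. Of 15 oligodendrocyte and myelin genes 5 rose and none fell. Myrf, the transcription factor that drives myelination, read 9.74, 9.72 and 9.83 against 9.15, 9.03 and 8.99, 0.71 ± 0.18 (adjusted p = 0.00643). Mag, an adhesion protein of the inner myelin wrap, read 11.84, 11.84 and 11.88 against 11.47, 11.32 and 11.25, 0.51 ± 0.13 (adjusted p = 0.00625). Both genes separated the groups, while the most abundant myelin gene, Mbp, differed by 0.01. Of 14 potassium and sodium channel genes 5 rose, among them Kcnc1, a fast-spiking potassium channel, by 0.73 ± 0.18 (adjusted p = 0.00599). Of 15 mitochondrial respiration genes 7 rose, led by the cytochrome oxidase subunit Cox8a (0.69 ± 0.21, adjusted p = 0.0193), with a list median of 0.16 and 0.09 with the covariate. Of 16 cholesterol synthesis genes 6 rose, among them the regulator Srebf2 (0.38 ± 0.12, adjusted p = 0.0178). No member of the myelin, respiration and cholesterol lists passed with the covariate. Leaving out tube alone array 2 alone gave 3, 0 and 1 rises in these lists and 0 among the channels, and leaving out array 3 alone gave 3, 0, 1 and 4. Each NT-3 array left out gave 3 rises for myelin and 3 for channels, and left the cholesterol count at 2 to 4. Without NT-3 array 2 the respiration count was 4.

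Few glial and immune genes were called, with the complement list as an exception. Of 15 reactive astrocyte genes 2 rose, a share near the 13.8% over all genes, and 1 fell. No rise was called with the covariate or with any single array but tube alone array 1 left out. Lcn2, a secreted iron-trap protein of reactive astrocytes, read 8.34, 8.41 and 9.11 against 7.66, 7.16 and 7.28, 1.25 ± 0.45 (adjusted p = 0.0453). The signal transducer Stat3 fell by 0.85 (adjusted p = 0.00192), with a second probe set of opposite sign, and Gfap (0.04), Vim (-0.22) and Serpina3n (0.15) were not called. Of 22 microglia and macrophage genes 3 rose, the Fc receptor chain Fcer1g (0.57), the calcium-binding Aif1 (0.55) and the Fc receptor Fcgr3a (0.43), and the list median was 0.07. That count is also near the share over all genes. It was 0 with the covariate and without NT-3 array 2, NT-3 array 3, tube alone array 2 or tube alone array 3, and 1 without NT-3 array 1. Of 19 interferon response genes 4 rose, against 13.8% called higher over all genes. The list median was 0.45, and 0.10 with the covariate. The ubiquitin-like Isg15 read 10.16, 10.16 and 10.41 against 9.63, 8.99 and 8.91, 1.07 ± 0.34 (adjusted p = 0.0262), and was at 0.19 with the covariate. Leaving out tube alone array 2 or 3 left no interferon gene called, and leaving out an NT-3 array left 1 or 2. Of 9 complement genes the C1 proteases C1r (-0.77 ± 0.15, adjusted p = 0.000865) and C1s (-0.77 ± 0.16, adjusted p = 0.00155) and their inhibitor Serping1 (-0.41) fell, and C1qb, a recognition subunit of C1, rose by 0.36 with arrays that overlapped. The falls stand against 5.84% called lower over all genes. None of the 9 passed with the covariate, and C1qb was not called without tube alone array 2 or 3 or without NT-3 array 2 or 3. The chemokine Cxcl12, made by meninges and stroma, fell by 0.96 ± 0.20 (adjusted p = 0.00109), and the neuronal chemokine Cx3cl1 rose by 0.51. In the vessel list of 20 genes, the Tie2 ligand Angpt2 fell by 1.02, the apelin receptor Aplnr rose by 0.70 and its ligand Apln by 0.60. Second, dimmer probe sets of Aplnr and Apln were at 0.04 and 0.11. These 2 rises are a smaller share than the 13.8% over all genes. No vessel gene was called higher with the covariate, or without NT-3 array 2 or 3 or tube alone array 2 or 3. Among 20 lysosome and lipid handling genes the fatty acid scavenger receptor Cd36 fell by 1.56 and the lipid carrier Fabp5 rose by 0.45. No gene of that list was called with the covariate or without tube alone array 2 or 3. No gene passed among 22 of the cell cycle, 14 immediate early, 6 T cell and 4 B cell genes.

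NT-3 itself was not seen as an endogenous transcript. Ntf3 read 4.73, 4.58 and 4.74 in NT-3 tube, 4.79, 4.92 and 4.69 in tube alone and 4.69 to 4.96 in normal cord, below the level of 6.55 that a gene had to reach in some group to be tested, and so did Ntf4 and Gdnf. The deposited values hold no measure of the NT-3 protein in the tube. Its receptor gene Ntrk3 read 7.20, 6.39 and 6.82 against 6.95, 6.99 and 7.19, with overlap and a difference of -0.24 ± 0.16 (adjusted p = 0.30). Ntrk2, the receptor of the related factor BDNF, read 11.70, 11.77 and 11.88 against 11.39, 11.36 and 11.42, 0.39 ± 0.12 (adjusted p = 0.0196). The groups did not overlap, though other Ntrk2 probe sets were at -0.15 and -0.34 as well as at 0.21 and 0.31. Bdnf differed by 0.08 (adjusted p = 0.766) and the shared neurotrophin receptor Ngfr by -0.14 (adjusted p = 0.778). The sorting receptor Sort1, which binds neurotrophin precursors, rose by 0.48 ± 0.11 (adjusted p = 0.002).

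In the GDNF family, the ligand neurturin (Nrtn) read 7.16, 7.39 and 7.44 against 6.84, 6.68 and 6.58, 0.63 ± 0.15 (adjusted p = 0.00354). Gfra3, the co-receptor for artemin, read 5.81, 6.00 and 6.04 against 7.06, 6.79 and 6.72, -0.91 ± 0.19 (adjusted p = 0.0012). Its NT-3 arrays, and its lesion control and normal means (6.48 and 5.82), lay below the 6.55 needed for testing, so Gfra3 is a dim gene. Gfra3 was the only one of the 12 tested neurotrophin, GDNF family and CNTF genes that passed with the covariate (-1.06, adjusted p = 0.0155). The common receptor Ret (0.22), Gfra1 (-0.07), Gfra2 (0.03), Cntf (0.29) and Cntfr (0.11) were not called. Downstream of TrkC, 2 of 16 genes of the signal chain passed, a smaller share than the 19.6% over all genes, and none passed with the covariate. Vgf rose, as above, and the transcription factor Creb1 fell by 0.91 ± 0.18 (limma, adjusted p = 0.0008). The other, dimmer probe sets of Creb1 were at -0.97, -0.03 and 0.03. The feedback genes Dusp6 (-0.03), Spry2 (0.04) and Spry4 (0.18) were not called. Among 23 axon regeneration genes 5 rose and 4 fell, against 13.8% and 5.84% over all genes. With any single array but tube alone array 1 left out there were 0 to 2 rises, and with the covariate none either way. Gap43 (0.14), Atf3 (-0.41) and Jun (-0.16) were not called.

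Skeletal muscle genes gave the largest differences, on 1 array. Of 16 tested 10 were called lower in NT-3 tube, against 5.84% over all genes, with a median of -1.80. The myosin light chain Myl1 read 5.31, 5.46 and 5.05 in NT-3 tube and 7.08, 6.61 and 12.90 in tube alone, the last on array 3. Creatine kinase Ckm read 4.55, 4.42 and 4.83 against 5.30, 4.89 and 10.40. On tube alone arrays 1 and 2 both genes were far nearer to the NT-3 arrays, though still above them. Without array 3 none of the 16 was called lower, 1 was called higher, and the median was -0.29. With any 1 of the NT-3 arrays left out 1 or 2 were called lower. Bone sialoprotein Ibsp, a gene of bone, read 3.93, 4.0 and 4.34 against 5.51, 7.80 and 6.10, highest on tube alone array 2. Only that array lay above the level of 6.55 set for testing. The sensory neuron gene Avil was also highest on that array, at 9.09, against 7.52 to 7.85 on the NT-3 arrays, where it was not called.

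Set against lesion control, NT-3 tube had 21 genes that passed (0.182%), 3 higher (Slc35d3, Lrrc20 and Tro) and 18 lower. Tube alone had none (0%), with 649 genes at an unadjusted limma p under 0.05. The lower ones included Ccl21 (-2.23), Dpt (-1.33), Igfbp3 (-1.25), Ccn3 (-1.21), Tgfb3 (-0.94) and Dcn (-0.91). For Ccl21 and Tgfb3 tube alone lay 0.13 and 0.04 above lesion control, whereas for Postn it lay 0.90 above, not called (adjusted p = 0.881). These values share the NT-3 arrays with the comparison above and are not a second test of it. The difference between these 2 contrasts is the comparison of NT-3 tube with tube alone given above.

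The same contrast was made in other blocks of the same operation. Caudal to the gap on day 30, where the hybridization controls also differed, by -0.48 on average, 6 genes passed (0.0523%), 2 higher and 4 lower. Hmcn1, the basement membrane gene described above, was one of them (-1.24), and so was the channel gene Pkd2 (-0.86, on its brighter probe set). No matrix, meningeal, neuronal or synaptic list gene was among them, and the matrix median was -0.64. Rostral on day 20, where the controls differed by 0.06, 16 genes passed, all lower (0.138%), and 2 were matrix genes, Postn (-2.70, adjusted p = 0.00453) and Fap (-1.58, adjusted p = 0.00779), with a list median of -0.82. Ccl21 (-1.89, adjusted p = 0.0219), Hmcn1 (-1.75) and Tgfb3 (-0.96, adjusted p = 0.00779) passed on that day as well. On day 60, 2557 genes passed (22.1%), 1737 higher (15.0%) and 820 lower (7.10%), the matrix median was -1.07 with 20 lower, and the neuronal median 0.66 with 16 higher, but RT1-CE10 differed there by -3.19 between the groups.

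**Figure D5:**
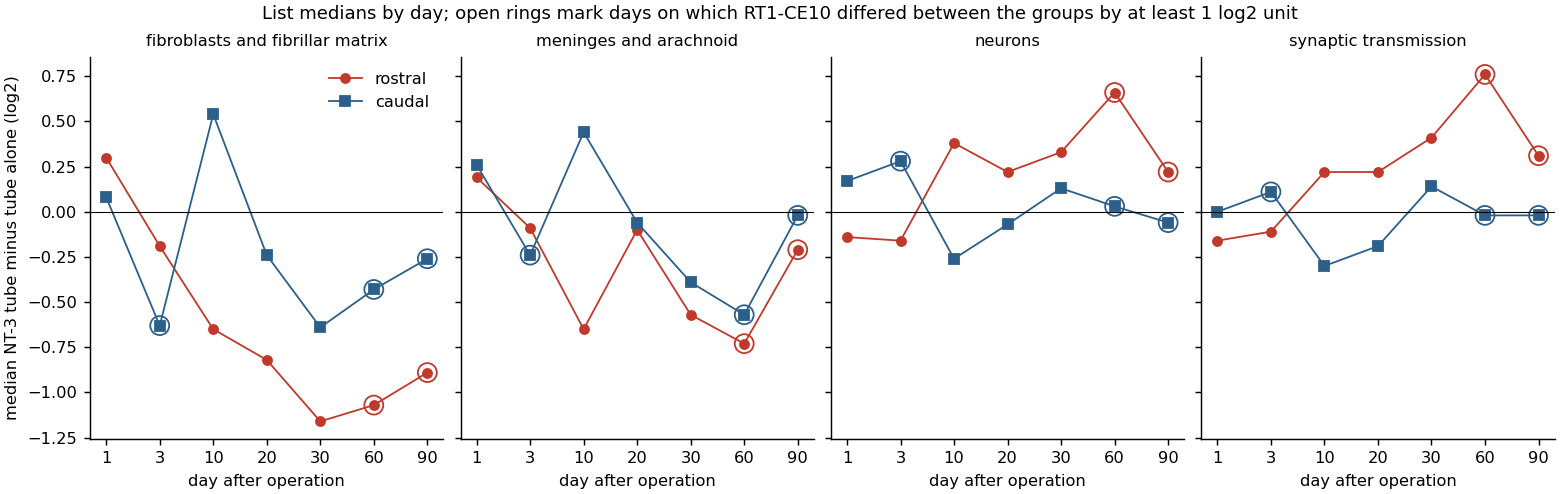
Median difference NT-3 tube minus tube alone (log2) of 4 gene lists by day after the operation, rostral (circles) and caudal (squares), with rings on days whose RT1-CE10 means differed by at least 1 log2 unit. The rostral matrix median was -0.65 on day 10, -0.82 on day 20 and -1.16 on day 30, and the caudal one was -0.64 on day 30; on day 1 the rostral median was 0.30 and on day 10 the caudal one 0.54, and tube alone has 2 rostral arrays on day 10.

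For the difference itself, no gene passed (0%) for rostral against caudal on day 30, where 2116 of 11590 genes had an unadjusted limma p under 0.05. With the replicate block 12 genes passed for the segments. None passed (0%) for day 30 against day 20 in the rostral segment, where 1115 of 11553 had such a p. The smallest adjusted p for the segments was 0.0528, shared by several genes. Among them were Adcyap1r1, the receptor of the neuropeptide PACAP, at 0.53 rostral and -0.19 caudal, and Nptxr, a receptor for neuronal pentraxins, at 0.71 and -0.19. In the rostral segment the other, dimmer probe sets of Adcyap1r1 were at 0.35, -0.09 and -0.24, and that of Nptxr at -0.29. The transcription factor Nfib was at -0.71 rostral and 0.33 caudal, and Dennd1a at 0.46 and -0.30. The matricellular gene Ccn4, at -0.88 rostral, did not reach the level for testing in the caudal fit. For the days the smallest adjusted p was 0.232, with the ion channel Pkd2 at -1.0 on day 30 and -0.12 on day 20. The guanylate cyclase subunit Gucy1a1 was at -0.69 and -0.04. Dimmer probe sets of these genes were at -0.07 for Pkd2 and -0.28 for Gucy1a1, rostral on day 30. A p above the threshold does not show that the segments or days were alike, since each such difference rests on 12 arrays.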

How the data were processed

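RNA of rat spinal cord was measured on Affymetrix expression arrays of the whole rat genome. The authors deposited log2 values per probe set for 172 arrays, made with Affymetrix Expression Console and RMA, per the submitters' processing notes. Software versions were not given in the sources used here. Values ran from 2.6 to 15.0, with array medians of 7.10 to 7.25. No scanner files were used, so background and saturation are unknown for each array. With 3 arrays a group, their small number sets the precision.

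Of 31099 probe sets, 20832 carried 1 gene symbol, 436 several and 9831 none in the table used; probe sets without 1 symbol were left out. For each of 14218 genes the probe set brightest on average on cord arrays was kept, and 4526 genes had more than 1. Genes whose mean reached 6.55, the 40th percentile, in at least 1 group were tested. A linear model with 1 mean per arm and day over 62 rostral and 3 normal arrays was fitted with limma 3.58.1 in R 4.3.3, with Benjamini-Hochberg adjustment over 11553 genes and a threshold of 0.05 ("called"). Tests of rostral against caudal and of day 30 against day 20 were contrasts of differences in the same kind of model. Each array of injured cord is a pool of 4 animals. The pooling of the normal cord arrays was not used here, and p-values measure the spread between arrays.

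Named genes were the 12 largest called rises and falls whose groups did not overlap, the 3 most changed called members of each of 50 lists, all measured neurotrophin genes, the 5 smallest p in each test of a difference, and RT1-CE10. Of 865 list entries 745 were matched. The comparison and the lists were chosen with earlier results of these data known. Same-numbered arrays of the 2 groups deviated together (correlations of 0.16, 0.16 and 0.13), so a replicate block was also fitted as a pairing check. Tested on simulated data, the fit recovered 63% of genes changed by 0.5 and 98% of those changed by 1 (log2) in the main comparison. The rates were 33% and 86% between segments and 27% and 93% between days. The simulated noise was independent between arrays, with 1 spread per gene for all groups, and held no shift of single arrays. These rates therefore do not cover shifts such as those of the control level or muscle RNA seen here. Alternatives were other filters, scalings, weights, fits and left-out arrays. The hybridization controls as covariate, and leaving out tube alone arrays 2 and 3 together, were chosen after seeing the data.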

Additional observations from a re-analysis of the deposited data

Results flagged for a closer look

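The hybridization controls, which are outside the gene measurements, stood at 11.82 and 11.88 on tube alone arrays 2 and 3, above the 11.15 to 11.29 of the normal cord arrays and above every other rostral array. Their part in the differences was not tested.

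Ckm, a muscle kinase, differed by -2.26 in the rostral segment and by 0.22 in the caudal segment on day 30, with all arrays of each comparison on opposite sides. The model's test of rostral against caudal gave -2.48 ± 0.96 for Ckm (limma, adjusted p = 0.179). Its rostral value rests on the 10.40 of tube alone array 3, and it did not reach the level for testing in the caudal fit. Sall1, a transcription factor of microglia, was at 0.33 rostral and -0.19 caudal, and no gene passed the model's test of rostral against caudal. Dennd1a, which acts in vesicle transport, was at 0.46 rostral and -0.30 caudal, and the model's test of its difference gave 0.77 ± 0.17 (limma, adjusted p = 0.0528).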

How the results depend on the processing

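Of 1589 genes higher and 675 lower, array weights gave 3562 and 2206, a 2-fold minimum 13 and 129, the hybridization control covariate 50 and 74, and leaving out tube alone arrays 2 and 3 gave 7 and 19. Leaving out 1 array at a time gave 391 to 2065 higher and 257 to 989 lower. The counts were 391 and 257 without tube alone array 2, 456 and 345 without tube alone array 3, 579 and 387 without NT-3 array 2, and 842 and 312 without NT-3 array 3. With the replicate block 2011 were higher and 801 lower, and 105 of 107 named called genes stayed called, with 2 lost.

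The rostral against caudal test, at 0, gave 6 genes after a second quantile normalization, 2326 with array weights, 12 with the replicate block, 3 with probe sets averaged, 17 with the covariate, 13 without tube alone arrays 2 and 3, and 0 to 68 with 1 array left out (68 without caudal tube alone array 1, 25 without caudal tube alone array 2, 34 without rostral NT-3 array 1, 5 without rostral tube alone array 3). The day 30 against day 20 test, at 0, gave 3074 with array weights and 0 to 10 with 1 array left out (10 without NT-3 array 1 of day 30). The array weights were fitted with convergence warnings. Acaca turned to -0.02 (limma, adjusted p = 0.863) with probe sets averaged, since its probe sets run in opposite directions. In each case where no such construction is named, the cause was not tested. Of the named called genes, 12 of 107 stayed called with the covariate and 3 without tube alone arrays 2 and 3. Differences in dim genes such as Ntf3 are beyond what these arrays resolve.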

Other observations

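Genes of lymphatic vessels were looked up after the values of Ccl21 and Mmrn1 had been seen, and they did not move as one. Vegfc, the growth factor of lymphatic endothelium, differed by -0.86 (limma, adjusted p = 0.000401) and by -0.96 with the hybridization control covariate (adjusted p = 0.00813). Lyve1, a hyaluronan receptor of lymphatic endothelium and of some macrophages, differed by -0.88 (adjusted p = 0.0148), and Ackr4, a scavenging receptor for Ccl21, by -0.58 (adjusted p = 0.0117). Prox1, the defining transcription factor of lymphatic endothelium, was at 0.35 (adjusted p = 0.0779), Pdpn at -0.07, Reln at 0.13, and the related chemokine Ccl19 at 0.43 (adjusted p = 0.0498). Without tube alone arrays 2 and 3 none of Vegfc, Lyve1 and Ackr4 was called.

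Among the lists not described above, 3 of 5 genes of ependyma and cilia rose, against 13.8% of all genes. They were Cfap126 (0.52), the ciliary transcription factor Foxj1 (0.42) and the dynein gene Dnai1 (0.36). The list had 0 rises without tube alone array 2, and 1 without NT-3 array 2, NT-3 array 3 or tube alone array 3. In the list of oligodendrocyte precursor genes, Nkx2-2 rose by 0.55, Olig1 by 0.47, and the receptor Pdgfra, also a fibroblast gene, fell by 0.57. None of these was called with the covariate.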
